A study of Mus musculus with 9 samples.

Results

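The nuclear genes of oxidative phosphorylation were followed across 3 groups of mouse T cells. They were chosen by symbol: protein-coding genes whose mouse symbol begins with Ndufa, Ndufb, Ndufc, Ndufs, Ndufv, Uqcr, Atp5 or Cox followed by 4, 5, 6, 7 or 8, together with Sdha, Sdhb, Sdhc, Sdhd, Cyc1 and Cycs. The rule took 96 of the 55487 gene IDs in the files. Of these, 85 encode subunits or cytochrome c: 36 for complex I, 4 for complex II, 9 for complex III, 18 for complex IV, 17 for complex V and 1 for cytochrome c. The other 11 are 8 assembly factors of complex I (the Ndufaf genes), the supercomplex factor Cox7a2l, the coupling factor gene Atp5s and Ndufa4l2, a paralog of Ndufa4. Ndufa4 was counted with complex IV, where its protein sits despite its symbol. The 96 IDs carry 95 symbols, since Atp5o has a second ID that held no count. A further 13 symbols match the pattern but are not annotated as protein coding and were left out, among them Ndufb1-ps, with 90.0 to 191 expected counts per library.

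Oxidative phosphorylation burns the products of nutrient breakdown in the inner mitochondrial membrane. Complex I takes electrons from NADH and complex II from succinate. Both pass them through ubiquinone to complex III, and cytochrome c carries them on to complex IV, which reduces oxygen. Complexes I, III and IV pump protons, and complex V, the ATP synthase, uses the returning protons to make ATP. A small set of core subunits is encoded by mitochondrial DNA, and all others by nuclear genes. Resting naive T cells draw most of their ATP from this pathway, whereas activated T cells add glycolysis.

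Poly(A) RNA was sequenced from spleen cells labelled naive CD4+ T cells, in 3 libraries for each of 3 groups. One group came from animals given a neutralizing antibody against the cytokine IL-1b over 10 days, another from animals given MCC950, a small-molecule inhibitor of the NLRP3 inflammasome sensor, over 10 days, and the last from untreated animals. They are called anti-IL-1b, MCC950 and untreated cells below. All 9 libraries share the wild-type genotype and the C57BL6/J strain, and the labels give no dose, sex, age, sort, gate or mouse of origin. Whether the 3 libraries of a group stem from different mice is not stated. The p-values therefore reflect library-to-library spread alone, and that spread may be technical.

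Total expected counts ran from 14775375 to 16676626 in the anti-IL-1b libraries, 16769960 to 18497827 in the MCC950 libraries and 17335367 to 21394797 in the untreated libraries. The 7 markers of naive CD4+ T cells (such as Cd3e, Cd4 and Ccr7) were detected in every group, with summed levels of 5575 to 5585 CPM in anti-IL-1b cells, 4995 to 4999.7 CPM in MCC950 cells and 5619 to 5720.4 CPM in untreated cells. CPM are TMM-scaled counts relative to the library's size. The untreated libraries stood apart in the 12 genes of handling stress (such as Fos, Jun and Hspa1a), which summed to 3033 to 3259 CPM in anti-IL-1b cells, 3378 to 3552 CPM in MCC950 cells and 17301 to 17657 CPM in untreated cells. The 12 B cell markers summed to 98.0 to 106 CPM in anti-IL-1b cells, 108 to 129 CPM in MCC950 cells and 19.6 to 26.4 CPM in untreated cells. The 10 neutrophil markers summed to 29.2 to 29.9 CPM in anti-IL-1b cells, 14.8 to 16.2 CPM in MCC950 cells and 1.10 to 1.24 CPM in untreated cells, with 6 of them (Camp, Ltf, Ly6g, Mmp8, Retnlg and S100a8) at 0 in all untreated libraries. The 9 markers of cytotoxic T and NK cells summed to 90.8 to 97.9 CPM in anti-IL-1b, 94.2 to 98.0 CPM in MCC950 and 63.9 to 69.6 CPM in untreated cells, and the 6 red cell genes to 4.38 to 5.005 CPM, 5.92 to 9.69 CPM and 0.122 to 0.445 CPM in those groups, with Hba-a1, Hbb-bs and Hbb-bt at 0 in the untreated ones. All 12 handling stress genes fell in each treated group against untreated cells (edgeR). The comparisons with untreated cells below carry these differences, and their part in the results was not tested.

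Respiratory chain genes were among the well expressed genes of these cells. TPM, which divide by transcript length, allow levels to be compared between genes of different length, and the 87 members that passed the filter on low counts had a median of 83.8 TPM in untreated cells, against 15.7 TPM for all 13374 tested genes. The highest were Atp5b, the catalytic beta subunit of ATP synthase, at 657 ± 7.65 TPM in untreated cells (SD, n = 3), Cox4i1 at 612 ± 25.6 TPM and Cox7a2l at 575 ± 4.74 TPM. Atp5s was the lowest tested member, at 7.14 ± 0.467 TPM. The 9 members that did not pass the filter were the second Atp5o ID and 8 genes known mainly from muscle, testis or hypoxic tissue: Cox4i2, Cox6a2, Cox6b2, Cox7a1, Cox7b2, Cox8b, Cox8c and Ndufa4l2. In 4 of these 9 no count was seen in any library, and Cox6b2 was the most frequent of them, with 59.0 expected counts over all 9 libraries.

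Transcript from the nuclear genes of the respiratory chain was highest in MCC950 cells. Summed over all 96 members, the level was 5034 to 5147 CPM in anti-IL-1b cells, 5604 to 5669.9 in MCC950 cells and 5110.1 to 5259 in untreated cells. The MCC950 libraries lay above all others, while the ranges of anti-IL-1b and untreated cells overlapped. The MCC950 libraries were also the highest for each of complexes I to V. For complexes IV and V the anti-IL-1b libraries lay below the untreated ones in CPM, but above them in summed TPM, at 2133 to 2225 TPM in anti-IL-1b and 2025 to 2132 TPM in untreated cells for complex IV, and 3855 to 4069 TPM in anti-IL-1b and 3691 to 3699 TPM in untreated cells for complex V. In summed TPM of all members, too, the anti-IL-1b libraries lay above the untreated ones, at 11408 to 11727 TPM in anti-IL-1b cells, 12613 to 12751 in MCC950 cells and 10627 to 10883 in untreated cells, with the MCC950 libraries again the highest. By complex, the mean sum in MCC950 cells over that in untreated cells was 1.10 for complex I, 1.10 for complex II, 1.12 for complex III, 1.08 for complex IV and 1.09 for complex V. The matching ratios of anti-IL-1b cells over MCC950 cells were 0.919, 0.895, 0.912, 0.873 and 0.893. Cytochrome c went a different way, and was highest in untreated cells. In bulk RNA, fewer cells of a type and less RNA per cell cannot be told apart, so these sums do not say which cells the transcripts came from.

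**Figure D1:**
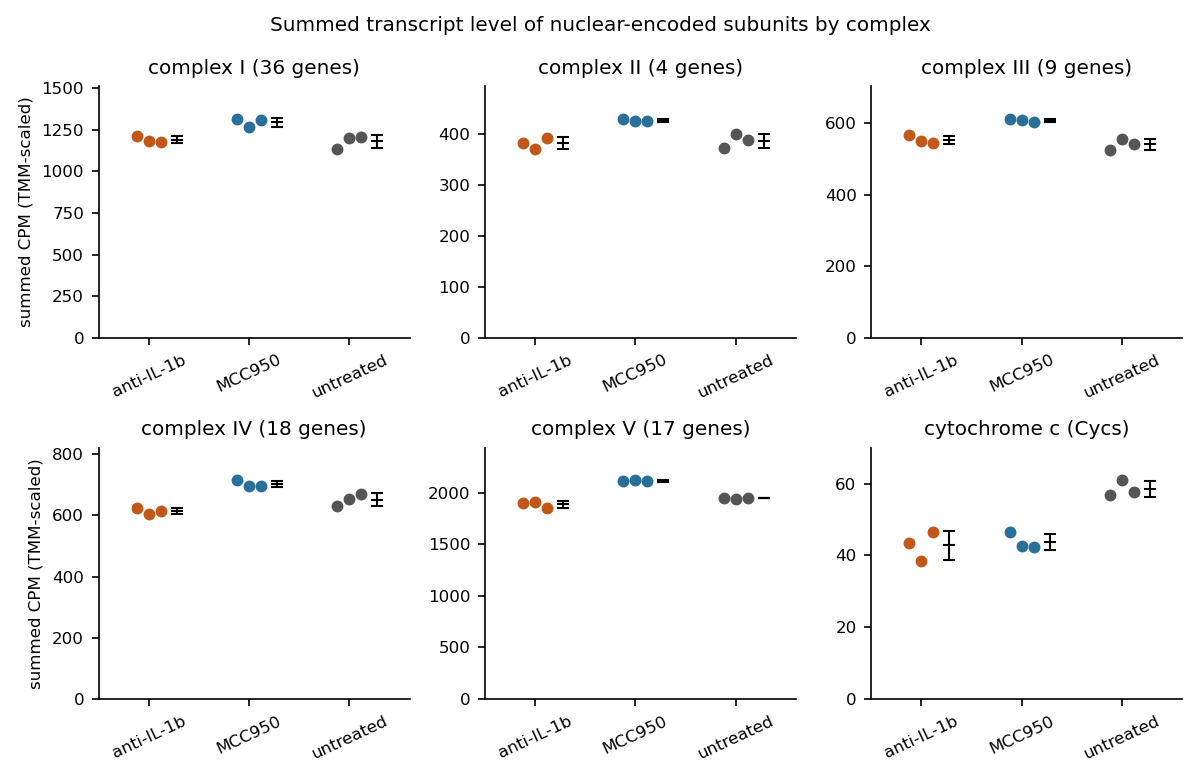
Summed CPM (TMM-scaled, vertical axes from 0) of the nuclear-encoded genes of each complex in the 9 libraries; points are libraries and the bar beside each group is mean ± SD (n = 3). In complexes I to V the 3 MCC950 libraries sit above all others, and for cytochrome c the untreated libraries do.

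Each of the 87 tested members was compared between groups with the quasi-likelihood test of edgeR, with Benjamini-Hochberg correction across all 13374 tested genes and a threshold of 0.05. In MCC950 against untreated cells, 30 members rose and 2 fell. Over all tested genes 36.8% were called, 17.7% rising and 19.1% falling, so the share called among the members (36.8%) equals the background, while the split does not: 34.5% of members rose and 2.30% fell. The median log2 fold change of the members was 0.12, against 0.01 for all genes, and 71 of 87 lay above 0. In 43 members all MCC950 libraries lay above all untreated libraries and in 2 below, against 23.5% and 23.8% of all genes. In anti-IL-1b against untreated cells, 5 members rose and 7 fell with TMM. That is 13.8% called, under the background of 34%, with a median log2 fold change of 0.01, against 0.00 for all genes. On library totals the split was turned, with 24 that rose and 2 that fell. There 29.4% of all genes rose and 10% fell. All anti-IL-1b libraries lay above all untreated libraries in 9 members and below them in 12, against 20.4% and 22.8% of all genes.

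Anti-IL-1b against MCC950 cells is the comparison in which no group is set against untreated cells. The untreated libraries still entered the filter, the scaling and the estimate of spread. In this comparison 24 members were lower in anti-IL-1b cells (27.6%) and 0 were higher. Over all genes 13.2% were called in this comparison, 7.11% lower and 6.13% higher. The median log2 fold change of the members was -0.13, against 0.00 for all genes, and 78 of 87 lay below 0. At an unadjusted p under 0.05, edgeR gave 34 members lower and 0 higher. DESeq2 called 23 lower and 0 higher, and limma-voom 24 lower and 0 higher. Without MCC950 library 3 the count of lower members was 15. A fit on the 6 libraries of these 2 groups alone called 25 lower and 0 higher. In 36 members all 3 anti-IL-1b libraries lay below all 3 MCC950 libraries, which held for 15.4% of all genes, and in 1 member they lay above, which held for 14% of all genes. Over all 9 libraries, the 3 MCC950 libraries lay above the 6 others in 25 of 87 members (28.7%) and in 7% of all tested genes.

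**Figure D2:**
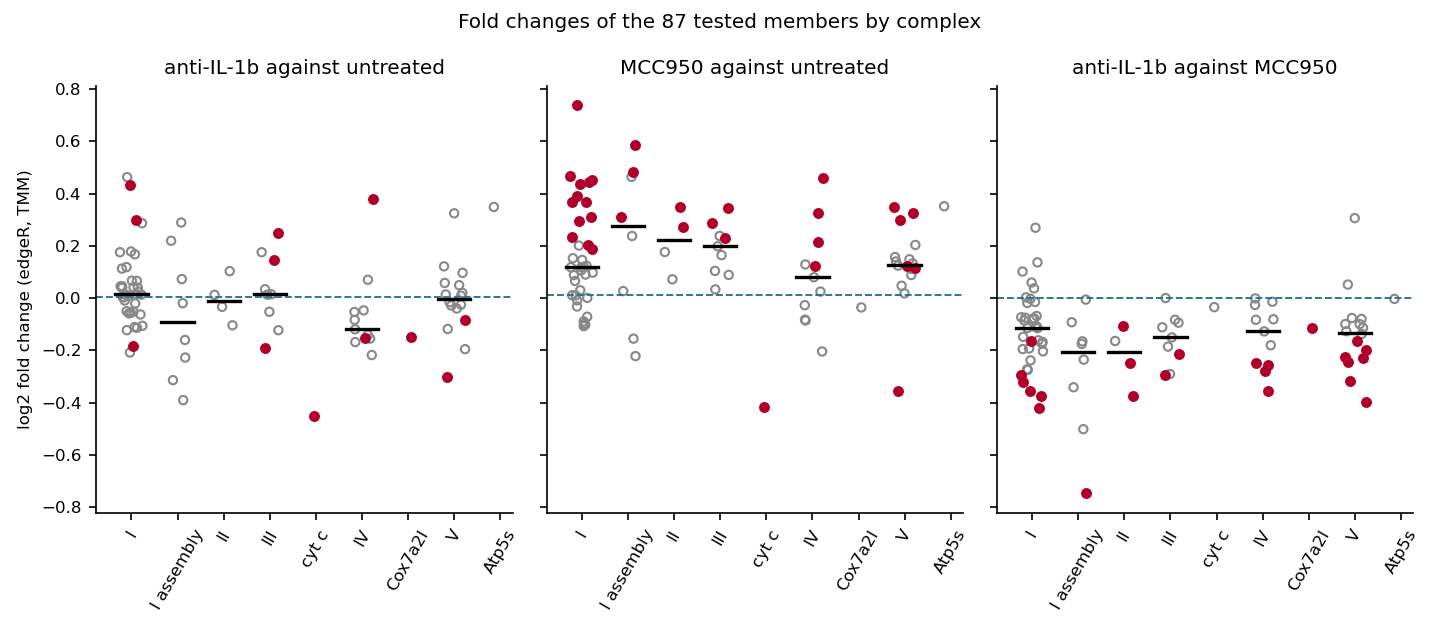
Log2 fold change (edgeR, vertical axis) of the 87 tested members by complex in the 3 comparisons; filled points passed the adjusted p of 0.05, open points did not, black bars are medians of groups of 3 or more, and dashed lines are the median of all 13374 tested genes. Most members lie above the line in MCC950 against untreated (71 of 87 above 0) and below it in anti-IL-1b against MCC950 (78 of 87 below 0).

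The medians of complexes I to V pointed the same way in each comparison with MCC950 cells, but differed in size. For anti-IL-1b against MCC950 the median log2 fold change was -0.11 for complex I, -0.21 for complex II, -0.15 for complex III, -0.13 for complex IV and -0.13 for complex V. For MCC950 against untreated it was 0.12, 0.22, 0.20, 0.08 and 0.13 in the same order. Complexes II and III had all of their tested genes above 0 with MCC950 (4 of 4 and 9 of 9), complex V 15 of 16, complex I 29 of 36 and complex IV 7 of 11.

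Many respiratory chain promoters carry sites of NRF1, ETS factors such as GABPA, and YY1. Their core letters were searched on both strands in the 250 bases before the start of each gene, in RefSeq promoters of the GRCm38.p6 build, which matched 71 of the 87 tested members. The NRF1 letters, GCGCA and then GCGC with 1 base of any kind between them, occurred in 14 members (19.7%), against 9.8% of 9224 other tested genes. The ETS letters CCGGAAG occurred in 14 (19.7%), against 16.8%, and the YY1 letters AAGATGGCG in 1 (1.4%), against 1.6%. Of the members, 3 held both the NRF1 and the ETS letters. The median log2 fold change between the agents was -0.11 for members with the NRF1 letters and -0.14 for those without, and for the ETS letters it was -0.24 with and -0.10 without, as descriptions with no test. The NRF1 letters can read alike on both strands, and such a place was counted as 1 match. A match to letters is not a shown site. The windows below hold the NRF1 letters, in capitals, for the 7 members with a match that were called in any comparison. Of these, Cox6a1, Ndufa11, Ndufa8, Sdha and Atp5h were lower in anti-IL-1b than in MCC950 cells, and Atp5g2 and Ndufaf4 were called only against untreated cells. They read 5′ to 3′ along the gene's strand, and the coordinates are 1-based.
Cox6a1 chr5:115349056-115349085 (- strand): cggataaagtGCGCAGGCGCtggagttcct
Cox6a1 chr5:115349101-115349130 (- strand): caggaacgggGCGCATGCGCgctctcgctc
Ndufa11 chr17:56717692-56717721 (+ strand): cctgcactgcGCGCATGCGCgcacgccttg
Ndufa8 chr2:36049349-36049378 (- strand): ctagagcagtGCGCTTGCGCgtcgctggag
Sdha chr13:74350241-74350270 (- strand): cgacacccgcgcgactcggtGCGCAAGCGC
Sdha chr13:74350276-74350305 (- strand): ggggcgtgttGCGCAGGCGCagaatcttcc
Sdha chr13:74350319-74350348 (- strand): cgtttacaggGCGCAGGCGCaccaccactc
Atp5h chr11:115420041-115420070 (- strand): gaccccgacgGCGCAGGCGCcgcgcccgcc
Atp5g2 chr15:102671070-102671099 (- strand): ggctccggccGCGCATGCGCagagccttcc
Ndufaf4 chr4:24897960-24897989 (+ strand): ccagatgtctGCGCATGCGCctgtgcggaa
Cox6a1 held 2 such matches, whose letters begin 117 and 162 bases before the start, and Sdha 3, at 10, 55 and 98 bases before it. Ndufa11, Ndufa8, Atp5h, Atp5g2 and Ndufaf4 held 1 each, at 60, 30, 141, 42 and 113 bases. Ndufa8 holds the letters on the opposite strand only.

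Complex I is the largest of the complexes. Against untreated cells, 13 of its 36 tested genes rose with MCC950, while with the antibody 2 rose and 1 fell. Anti-IL-1b cells were lower than MCC950 cells in 6 of the 36. In these counts 36.1% rose with MCC950, against 17.7% of all genes. With the antibody 5.56% rose and 2.78% fell, against 15.4% and 18.5% of all genes. Between the agents 16.7% were lower, against 7.11%. Over the 36 genes, log2 fold changes ran from -0.11 to 0.74 with MCC950, from -0.21 to 0.46 with the antibody and from -0.42 to 0.27 between the agents. Ndufb7, an accessory subunit of the membrane arm (chromosome 8, 83566671 to 83571626, mm10), had 42.2, 38.8 and 36.8 CPM in anti-IL-1b cells, 48.6, 46.4 and 49.4 in MCC950 cells and 37.2, 34.1 and 33.2 in untreated cells. All MCC950 libraries lay above all others, and the other groups overlapped. The log2 fold change was 0.47 ± 0.08 (adjusted p = 3.4e-06) for MCC950 against untreated and -0.29 ± 0.08 (adjusted p = 0.0063) for anti-IL-1b against MCC950 (edgeR, SE).

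Ndufs7 carries the iron-sulfur cluster that hands electrons to ubiquinone. It had 35.7, 34.2 and 27.4 CPM in anti-IL-1b cells, 42.1, 38.2 and 41.5 in MCC950 cells and 30.7, 29.7 and 34.1 in untreated cells. The MCC950 libraries were again the highest, with a rise of 0.37 ± 0.09 (adjusted p = 0.00095), and the difference between the agents was -0.32 ± 0.09 (adjusted p = 0.011, edgeR). Ndufa11, an accessory subunit of the membrane arm, had 13.6, 15.3 and 12.7 CPM in anti-IL-1b cells, 18.8, 18.8 and 18 in MCC950 cells and 14.1, 14.8 and 11.9 in untreated cells, and Ndufa8, another accessory subunit, had 28.5, 25.98 and 25 CPM in anti-IL-1b cells, 32.6, 31.7 and 37.3 in MCC950 cells and 28.04, 26.3 and 28.6 in untreated cells. In both, MCC950 libraries lay above all others. Their log2 fold changes were 0.44 and 0.30 with MCC950 (adjusted p = 0.0047 and 0.0085) and -0.42 and -0.35 between the agents (adjusted p = 0.022 and 0.0060, edgeR). Between the agents, the adjusted p of edgeR for Ndufs7 was 0.14, 0.067 and 0.059 without anti-IL-1b library 3, MCC950 library 1 and MCC950 library 3. That of Ndufa11 ran from 0.050 to 0.098 without anti-IL-1b library 1 or 3 or any single MCC950 library. Ndufa8 depended on MCC950 library 3, with an adjusted p of 0.087 against untreated and 0.084 between the agents without it (edgeR).

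Ndufc1, a small membrane subunit, had the largest rise of all members, but from few reads, at 5.72, 7.29 and 6.69 CPM in MCC950 cells, against 3.96, 3.27 and 4.60 in untreated cells. The ranges did not overlap, and the log2 fold change was 0.74 ± 0.23 (adjusted p = 0.0093, edgeR), with an adjusted p of 0.056 without MCC950 library 2 and 0.055 without untreated library 2. Ndufc2, its partner in the membrane arm, rose by 0.31 (log2, adjusted p = 0.016), with a difference between the agents of -0.37 (adjusted p = 0.013, edgeR). Neither call of Ndufc2 held without MCC950 library 3, where the adjusted p was 0.12 against untreated and 0.12 between the agents. It was 0.053 and 0.052 for the rise without untreated libraries 1 and 3, and 0.078 between the agents without anti-IL-1b library 2 (edgeR). The membrane-arm genes Ndufb2 and Ndufb3 rose by 0.45 and 0.39 with MCC950 (log2, adjusted p = 0.0049 and 0.0017, edgeR). Ndufa13, a membrane-arm accessory subunit, and Ndufs3, a core subunit of the peripheral arm, rose by 0.23 and 0.20 with MCC950 (log2, adjusted p = 0.036 and 0.023, edgeR). The rise of Ndufa13 did not pass in DESeq2 (0.055), limma-voom (0.067) or on log2(TPM + 1) (0.062), nor without MCC950 library 1 or 3 or any 1 untreated library, where edgeR's adjusted p ran from 0.059 to 0.30. That of Ndufs3 had adjusted p of 0.073, 0.059 and 0.12 without MCC950 libraries 1 and 3 and untreated library 1 (edgeR).

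Ndufab1 and Ndufb5 were the complex I genes that rose with the antibody. Ndufab1 encodes the mitochondrial acyl carrier protein, which also serves fatty acid and lipoic acid synthesis (chromosome 7, 122085403 to 122101886). It had 30.7, 25.3 and 31.3 CPM in anti-IL-1b cells, 30, 28.5 and 29.03 in MCC950 cells and 23.04, 18.3 and 23.4 in untreated cells. Both treated groups lay above the untreated one, with log2 fold changes of 0.43 ± 0.10 (adjusted p = 0.00089) for anti-IL-1b and 0.44 ± 0.10 (adjusted p = 0.00070) for MCC950 against untreated (edgeR), and the anti-IL-1b and MCC950 ranges overlapped. On log2(TPM + 1) values neither call held, with limma adjusted p of 0.56 and 0.68. Ndufb5, a membrane-arm subunit, rose by 0.30 with the antibody (adjusted p = 0.0088, and 0.066 without anti-IL-1b library 2) and by 0.37 with MCC950 (log2, adjusted p = 0.0012, edgeR). Its exons overlap those of the antisense gene Mrpl47.

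The electron entry site of complex I behaved less uniformly. Ndufv1, which binds NADH and the flavin, had 72.1, 58.3 and 61.5 CPM in anti-IL-1b cells, 76.2, 70.5 and 70.1 in MCC950 cells and 65.3, 60.6 and 64.5 in untreated cells. It rose with MCC950 (0.19 ± 0.07, adjusted p = 0.025, edgeR), with adjusted p of 0.12 and 0.12 without MCC950 library 1 and untreated library 2, and its anti-IL-1b range overlapped both others. Ndufs1, the largest iron-sulfur subunit, had 82.1, 78.6 and 86.1 CPM in anti-IL-1b cells, 83.4, 84.1 and 92.9 in MCC950 cells and 89.1, 99.2 and 91.9 in untreated cells. All anti-IL-1b libraries lay below all untreated ones, and the MCC950 range overlapped both. It was the 1 complex I gene that fell with the antibody (-0.18 ± 0.06, adjusted p = 0.010, edgeR), a call that did not hold on library totals (adjusted p = 0.46) and changed sign on log2(TPM + 1), at 0.05. Without anti-IL-1b library 2 and untreated library 2 its adjusted p was 0.068 and 0.094 (edgeR). The complex I gene with the most TPM in untreated cells was Ndufa6, an accessory subunit, at 200.4 ± 5.33 TPM in anti-IL-1b, 179 ± 6.93 TPM in MCC950 and 180.1 ± 10.3 TPM in untreated cells (SD, n = 3), and it passed no test. Ndufb4, the lowest at 23.7 ± 0.454 TPM in untreated cells, passed none either, and shares 18.3% of its 50-base words with other genes.

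Among the 8 assembly factors of complex I, 3 rose with MCC950, and 1, Ndufaf8, was lower in anti-IL-1b than in MCC950 cells. That is 37.5% and 12.5%, where 17.7% of all genes rose with MCC950 and 7.11% were lower between the agents. Ndufaf8 works with Ndufaf5 in early assembly. It had 6.81, 6.45 and 4.46 CPM in anti-IL-1b cells, 10.9, 8.82 and 10.2 in MCC950 cells and 6.64, 6.04 and 7.17 in untreated cells. MCC950 libraries lay above all others, with log2 fold changes of 0.59 ± 0.18 (adjusted p = 0.0085) against untreated and -0.75 ± 0.18 (adjusted p = 0.0037) for anti-IL-1b against MCC950 (edgeR). At these low levels neither call held on log2(TPM + 1), with limma adjusted p of 0.066 and 0.42. The other 2 that rose were Ndufaf3 (0.48, adjusted p = 0.032) and Ndufaf4 (0.31, adjusted p = 0.013, edgeR). Neither passed on log2(TPM + 1), with limma adjusted p of 0.59 and 0.085, where 0 of the 8 rose. Ndufaf3 had adjusted p of 0.051 in DESeq2 and 0.054 in limma-voom, so that each called 2 of the 8. Without MCC950 library 1 or 3 or untreated library 1 or 2 its edgeR adjusted p ran from 0.050 to 0.19.

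All 4 genes of complex II, the succinate dehydrogenase that links the citric acid cycle to the chain, had every MCC950 library above every untreated and every anti-IL-1b library. Over all tested genes that held for 7%. Sdhc, 1 of the membrane anchors (chromosome 1, 171127165 to 171150603), had 42.02, 37.4 and 41.4 CPM in anti-IL-1b cells, 51.3, 55.3 and 50.2 in MCC950 cells and 42.97, 46.95 and 39.9 in untreated cells. It rose by 0.27 ± 0.07 (adjusted p = 0.0035) with MCC950, with a difference between the agents of -0.37 ± 0.08 (adjusted p = 0.00044, edgeR). The antibody and untreated ranges overlapped. Sdhb, the iron-sulfur subunit, had 48.7, 48.5 and 55.3 CPM in anti-IL-1b cells, 62.03, 59.5 and 59.4 in MCC950 cells and 42.5, 49.1 and 50.1 in untreated cells. Its rise with MCC950 was 0.35 ± 0.07 (adjusted p = 0.00012) and its difference between the agents -0.25 ± 0.07 (adjusted p = 0.016, edgeR). The difference between the agents did not pass without anti-IL-1b library 1 or 2 or MCC950 library 1, with edgeR adjusted p of 0.073, 0.085 and 0.074.

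Sdha, the flavoprotein that oxidizes succinate, had 256, 252 and 262 CPM in anti-IL-1b cells, 277, 275 and 278 in MCC950 cells and 256, 269.7 and 263 in untreated cells. The difference from MCC950 cells was small, at -0.11 ± 0.03 (adjusted p = 0.031, edgeR). It did not pass without anti-IL-1b library 1 or 2 or any 1 of the MCC950 libraries, where the adjusted p ran from 0.056 to 0.13, nor on library totals (adjusted p = 0.065). Sdhd, the other anchor, had a log2 fold change of 0.18 ± 0.08 (adjusted p = 0.084) for MCC950 against untreated. It was -0.16 ± 0.08 (adjusted p = 0.21) for anti-IL-1b against MCC950, and neither passed (edgeR with TMM). All 4 complex II genes, Sdhd included, rose with MCC950 at an unadjusted p under 0.05 in edgeR. All 4 also rose on library totals and on log2(TPM + 1), where 30% and 16.2% of all genes rose. No complex II gene passed in anti-IL-1b against untreated cells in edgeR, DESeq2 or limma-voom, nor at an unadjusted p under 0.05 in edgeR, where 0 rose and 0 fell. On library totals 2 of the 4 rose, where 29.4% of all genes rose. On log2(TPM + 1) 2 rose, where 19.8% of all genes rose.

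In complex III, which passes electrons from ubiquinol to cytochrome c, 3 of 9 genes rose with MCC950. With the antibody 2 rose and 1 fell, and between the agents 2 were lower in anti-IL-1b cells. With MCC950 33.3% were called, all rising, where 36.8% of all genes were called and 17.7% rose. With the antibody 33.3% were called, against 34% of all genes. Between the agents 22.2% were lower, against 7.11%. With MCC950 the log2 fold changes of all 9 ran from 0.03 to 0.34. Cyc1, the cytochrome c1 subunit (chromosome 15, 76343523 to 76346260), had 83.98, 81.3 and 75.3 CPM in anti-IL-1b cells, 87.8, 82.8 and 86.3 in MCC950 cells and 62.8, 66.2 and 73.2 in untreated cells. Both treated groups lay above the untreated one, with 0.25 ± 0.06 (adjusted p = 0.0013) for anti-IL-1b and 0.34 ± 0.06 (adjusted p = 1.4e-05) for MCC950 (edgeR). Uqcrc1, a core subunit without a redox centre, had 139, 132 and 132 CPM in anti-IL-1b cells, 139, 142 and 146 in MCC950 cells and 119, 124 and 121 in untreated cells. It rose by 0.15 ± 0.04 (adjusted p = 0.0065) with the antibody and by 0.23 ± 0.04 (adjusted p = 3.1e-05) with MCC950 (edgeR), and the first of these had an adjusted p of 0.055 without anti-IL-1b library 1. The calls for Cyc1 did not hold on log2(TPM + 1), with limma adjusted p of 0.076 for anti-IL-1b and 0.094 for MCC950.

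Uqcrh, the hinge protein that helps cytochrome c dock, was the complex III gene with the most TPM. It had 93.6, 90.3 and 95.4 CPM in anti-IL-1b cells, 116, 113 and 114 in MCC950 cells and 109.9, 106 and 102 in untreated cells. The 3 groups did not overlap, with MCC950 highest and anti-IL-1b lowest. Against untreated cells the antibody gave -0.19 ± 0.05 (adjusted p = 0.0021) and MCC950 0.10 ± 0.05 (adjusted p = 0.084), and the agents differed by -0.29 ± 0.05 (adjusted p = 2.6e-05, edgeR). The fall against untreated cells did not pass on library totals, at -0.06 (adjusted p = 0.33, edgeR). Uqcrfs1, the Rieske iron-sulfur protein, was lower in anti-IL-1b than in MCC950 cells (-0.21 ± 0.07, adjusted p = 0.024, edgeR). That call was lost without anti-IL-1b library 3 or MCC950 library 1 or 2, with adjusted p of 0.13, 0.091 and 0.098 (edgeR). Uqcrb, a small subunit near the ubiquinone site and the third to rise with MCC950 (0.29, adjusted p = 0.039), shares 25.4% of its 50-base words with other genes, and its adjusted p ran from 0.055 to 0.15 without any 1 MCC950 library or without untreated library 1 or 3 (edgeR).

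Complex IV, cytochrome c oxidase, uses tissue-specific versions of several subunits. In all 3 groups the general form carried the transcript, and the muscle, testis or hypoxia form was at or near 0. Cox4i1 had 607 ± 43.3 TPM in anti-IL-1b, 712 ± 18.3 TPM in MCC950 and 612 ± 25.6 TPM in untreated cells (SD, n = 3), and its hypoxia-linked paralog Cox4i2 had 2 expected counts in all 9 libraries together. Of the pairs that differ between muscle and other tissues, Cox6a1 had 229.5 ± 6.54 TPM, Cox7a2 92.1 ± 10.9 TPM and Cox8a 205 ± 13.5 TPM in untreated cells (SD, n = 3). Their muscle forms Cox6a2, Cox7a1 and Cox8b had 3, 2 and 0 expected counts over the 9 libraries. Cox6b1 had 148 ± 8.93 TPM and the testis form Cox6b2 1.35 ± 0.939 TPM in untreated cells (SD, n = 3), and Cox8c, also a testis form, had no count.

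Cox4i1, the subunit through which ATP is thought to slow the enzyme, moved in all 3 comparisons. It lies on chromosome 8, 120668222 to 120674207, and had 219, 196 and 208 CPM in anti-IL-1b cells, 254, 255 and 245 in MCC950 cells and 229, 224 and 239.9 in untreated cells. No group overlapped another, with MCC950 highest and anti-IL-1b lowest. The antibody gave -0.15 ± 0.04 (adjusted p = 0.0019) and MCC950 0.12 ± 0.04 (adjusted p = 0.010) against untreated cells, and the agents differed by -0.28 ± 0.04 (adjusted p = 1.5e-06, edgeR). The fall with the antibody was -0.03 on library totals (adjusted p = 0.63), and the rise with MCC950 had an adjusted p of 0.072 without untreated library 2 (edgeR). The difference between the agents held in every alternative run. Part of an exon lies opposite the antisense gene Emc8.

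Cox6a1 had 53.4, 55.3 and 55.3 CPM in anti-IL-1b cells, 70.3, 70.2 and 69.2 in MCC950 cells and 57.2, 60.8 and 62.6 in untreated cells. The 3 groups were again apart, with a rise of 0.22 ± 0.06 (adjusted p = 0.0047) with MCC950, a difference between the agents of -0.36 ± 0.06 (adjusted p = 6.1e-05), and -0.14 ± 0.06 (adjusted p = 0.082) for the antibody against untreated, which did not pass (edgeR). Cox6b1, on the outer face of the enzyme, had 42.5, 48.7 and 43.4 CPM in anti-IL-1b cells, 51.9, 52.5 and 56.2 in MCC950 cells and 37.7, 45.7 and 44.5 in untreated cells. MCC950 libraries were highest, with 0.33 ± 0.08 (adjusted p = 0.00067) against untreated and -0.25 ± 0.08 (adjusted p = 0.020) between the agents (edgeR), the second of which had adjusted p of 0.095, 0.080 and 0.12 without anti-IL-1b libraries 1 and 3 and MCC950 library 3. Cox5a, a subunit on the matrix side, was the fourth complex IV gene lower in anti-IL-1b than in MCC950 cells (-0.25 ± 0.08, adjusted p = 0.043, edgeR). Its call was lost in DESeq2 (0.060), with RLE scaling (0.051) and on library totals (0.058), and without any 1 library of either group, where the adjusted p ran from 0.063 to 0.15 (edgeR).

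Ndufa4 was the complex IV gene that moved most. It had 40.7, 39.2 and 39.4 CPM in anti-IL-1b cells, 45.6, 40.7 and 40 in MCC950 cells and 32, 35.7 and 24.1 in untreated cells. Both treated groups lay above the untreated one, whose libraries were widely spread, with log2 fold changes of 0.38 ± 0.10 (adjusted p = 0.0030) for anti-IL-1b and 0.46 ± 0.10 (adjusted p = 0.00035) for MCC950 (edgeR). Both calls held in every alternative run. Its paralog Ndufa4l2, a target of the hypoxia response, had 2 expected counts in all. Not all of complex IV followed: Cox7a2, Cox7b and Cox8a had log2 fold changes of -0.20, -0.09 and -0.03 with MCC950 against untreated, none past the threshold (adjusted p = 0.12, 0.48 and 0.81, edgeR).

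**Figure D3:**
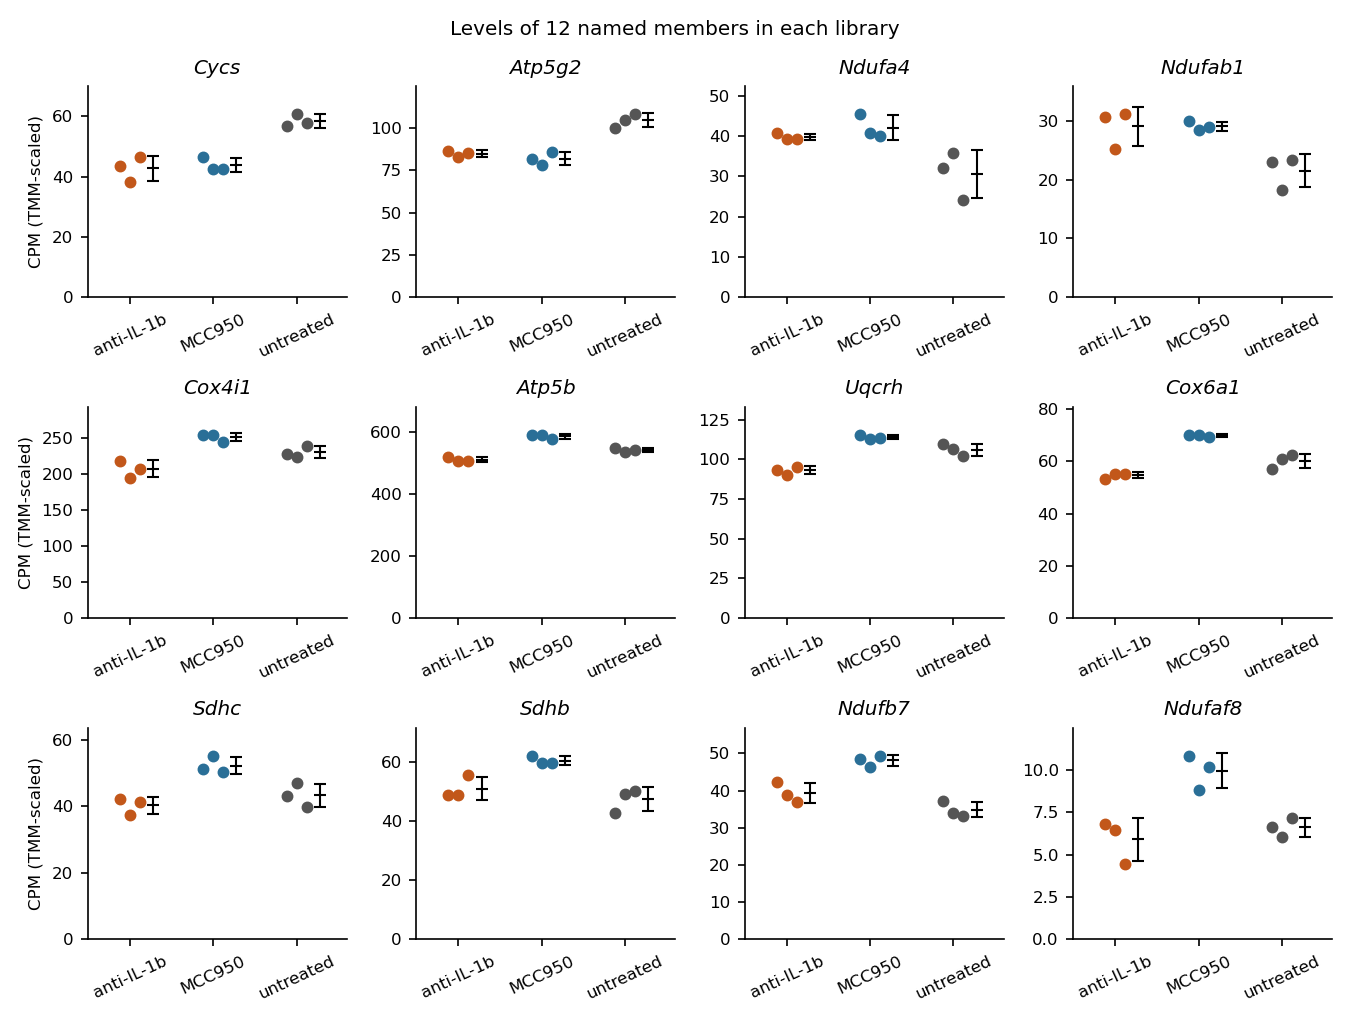
CPM (TMM-scaled, vertical axes from 0) of 12 named members in each of the 9 libraries, with mean ± SD (n = 3) beside each group. Cycs and Atp5g2 are highest in untreated cells, Ndufa4 and Ndufab1 are lowest there, and in the other 8 genes the MCC950 libraries lie above all others.

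In complex V, 7 of 16 tested genes were lower in anti-IL-1b than in MCC950 cells. Against untreated cells 5 rose and 1 fell with MCC950, and 2 fell with the antibody. That is 31.2% that rose and 6.25% that fell with MCC950, against 17.7% and 19.1% of all genes. With the antibody 12.5% fell, against 18.5%. Between the agents 43.8% were lower, against 7.11%. Atp5b (chromosome 10, 128083273 to 128090391) had 522, 507 and 507 CPM in anti-IL-1b cells, 593, 590.0 and 578 in MCC950 cells and 548, 536 and 543 in untreated cells. The groups did not overlap, with MCC950 highest and anti-IL-1b lowest. MCC950 gave 0.11 ± 0.03 (adjusted p = 0.0013) against untreated, and the agents differed by -0.20 ± 0.03 (adjusted p = 1.9e-06, edgeR). The small fall with the antibody (-0.08 ± 0.03, adjusted p = 0.018) had adjusted p of 0.074 and 0.11 without anti-IL-1b library 2 and untreated library 1, and changed sign on library totals (0.04) and on log2(TPM + 1) (0.10).

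The other complex V genes that rose with MCC950 were Atp5a1, the alpha subunit of the catalytic head (0.12, adjusted p = 0.0010), Atp5e, the epsilon subunit of the central stalk (0.35, adjusted p = 5.5e-06), Atp5h, the d subunit of the peripheral stalk (0.32, adjusted p = 1.3e-06), and Atp5j2, the f subunit of the membrane part (0.30, adjusted p = 0.00034, edgeR). All 4 were also lower in anti-IL-1b than in MCC950 cells, with log2 fold changes of -0.16, -0.23, -0.23 and -0.31 (adjusted p of 0.00012, 0.0058, 0.0012 and 0.00080, edgeR). Atp5mpl, a small proteolipid of the membrane part, had 21.6, 24.04 and 21.4 CPM in anti-IL-1b cells, 29.7, 29.4 and 29.4 in MCC950 cells and 23.8, 24.8 and 28.1 in untreated cells. MCC950 libraries lay above all others, and the difference between the agents was -0.40 ± 0.10 (adjusted p = 0.0033, edgeR). Ndufa13, Ndufs3, Ndufaf3, Ndufaf4, Cox5a, Atp5a1, Atp5e, Atp5h and Atp5j2 lie outside the naming rule and were added after their values were seen, to complete small counts.

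The rotor ring of ATP synthase is built from a single protein that 3 genes encode, Atp5g1, Atp5g2 and Atp5g3, which differ in their targeting sequences. They did not move alike. Atp5g2 (chromosome 15, 102662864 to 102672352) had 86.6, 82.8 and 85.4 CPM in anti-IL-1b cells, 81.8, 78.02 and 85.98 in MCC950 cells and 100.3, 105 and 109 in untreated cells. Untreated libraries lay above all others, with log2 fold changes of -0.30 ± 0.05 (adjusted p = 1.7e-05) for anti-IL-1b and -0.35 ± 0.05 (adjusted p = 8.7e-07) for MCC950 (edgeR). Atp5g3 had 86.8, 79.7 and 83.9 CPM in anti-IL-1b cells, 96.3, 98.6 and 101 in MCC950 cells and 87.2, 100.4 and 84.1 in untreated cells, and was lower in anti-IL-1b than in MCC950 cells (-0.24 ± 0.06, adjusted p = 0.0031, edgeR), while untreated library 2 lay among the MCC950 libraries. Atp5g1, at 31.8 ± 1.22 CPM in anti-IL-1b, 34.01 ± 2.27 CPM in MCC950 and 30.4 ± 3.66 CPM in untreated cells (SD, n = 3), passed no test. Of the 50-base words of Atp5g2, 38.3% occur in other genes, so part of its count may depend on how shared reads were split.

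Cycs, the gene of cytochrome c, which carries electrons between complexes III and IV and triggers apoptosis when released from mitochondria, ran against most of the chain. It lies on chromosome 6, 50562563 to 50566538, and had 43.6, 38.4 and 46.5 CPM in anti-IL-1b cells, 46.5, 42.7 and 42.4 in MCC950 cells and 56.7, 60.95 and 57.7 in untreated cells. Every untreated library lay above all 6 others, and the treated groups overlapped. The log2 fold changes were -0.45 ± 0.07 (adjusted p = 4.5e-06) for anti-IL-1b and -0.42 ± 0.07 (adjusted p = 1.3e-05) for MCC950 (edgeR). On log2(TPM + 1) they were -0.34 and -0.41, with limma adjusted p of 0.12 and 0.073. Cycs shares 25.9% of its 50-base words with 43 other genes. Cycs and Atp5g2 were the 2 members that fell with MCC950, and both are among the 14 tested members that share over 10% of these words. Cox7a2l, a factor that joins complexes III and IV into supercomplexes, shares 13.8%. It had 335, 322 and 330.3 CPM in anti-IL-1b cells, 346, 358 and 364 in MCC950 cells and 363, 369 and 362 in untreated cells. The anti-IL-1b libraries were the lowest, at -0.15 ± 0.03 (adjusted p = 0.00024) against untreated and -0.11 ± 0.03 (adjusted p = 0.012) against MCC950 (edgeR). The first was -0.02 on library totals (adjusted p = 0.62) and 0.0016 on log2(TPM + 1), and the second had adjusted p of 0.080 and 0.094 without anti-IL-1b library 2 and MCC950 library 3 (edgeR).

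The summed transcript of the 13 subunits encoded by mitochondrial DNA was lowest in MCC950 cells. It was 19328 to 21257 CPM in anti-IL-1b cells, 16502 to 16868 CPM in MCC950 cells and 21121 to 22000.3 CPM in untreated cells. MCC950 libraries lay below all others, and the ranges of anti-IL-1b and untreated cells overlapped. Against untreated cells, 8 of 13 fell and 0 rose with MCC950, where 19.1% of all genes fell. Between the agents 8 were higher in anti-IL-1b cells and 0 lower, where 6.13% of all genes were higher. With the antibody 3 fell and 0 rose against untreated cells, where 18.5% of all genes fell. On library totals 2 fell and 5 rose, where 10% of all genes fell and 29.4% rose. Each of the counts of 0 was also 0 at an unadjusted p under 0.05 in edgeR and by DESeq2 and limma-voom. mt-Nd4, a proton-pumping subunit of complex I, had 1895, 1865 and 2003 CPM in anti-IL-1b cells, 1268, 1334 and 1339 in MCC950 cells and 2043, 2038 and 1922 in untreated cells. The MCC950 libraries were the lowest, at -0.61 ± 0.03 (adjusted p = 2.1e-18) against untreated, and the agents differed by 0.55 ± 0.03 (adjusted p = 5.6e-16, edgeR). mt-Nd5, another pumping subunit, differed by 0.50 ± 0.03 (adjusted p = 3.5e-18) between the agents (edgeR). The 3 that fell with the antibody were mt-Nd2 (-0.27, adjusted p = 1.3e-10), mt-Nd1 (-0.25, adjusted p = 3.3e-09) and mt-Cytb (-0.15, adjusted p = 1.0e-05, edgeR). On log2(TPM + 1), however, 1 of the 13 fell and 2 rose with the antibody, where 6.47% of all genes fell and 19.8% rose. mt-Cytb had 3211 ± 78.8 TPM in anti-IL-1b and 3217 ± 72.0 TPM in untreated cells (SD, n = 3). The TPM ranges of mt-Nd1 overlapped, at 2475 to 2664 TPM in anti-IL-1b and 2644 to 2871 TPM in untreated cells.

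Factors that build the chain but lie outside the symbol rule were read from a list of 39, of which 38 were tested. With MCC950 11 of them rose and 0 fell, where 17.7% of all genes rose and 19.1% fell. At an unadjusted p under 0.05 edgeR gave 14 and 1, DESeq2 called 10 and 0 and limma-voom 13 and 0. With the antibody 6 rose and 5 fell, where 15.4% of all genes rose and 18.5% fell. On library totals the split of the 38 with the antibody was 15 and 1, where 29.4% of all genes rose and 10% fell. Between the agents edgeR called 0, against 13.2% of all genes, with 1 higher and 5 lower at an unadjusted p under 0.05. DESeq2 called 0 there, and limma-voom 0 higher and 1 lower. Tmem126b, needed for the membrane arm of complex I, had 22.4, 24.5 and 23.7 CPM in anti-IL-1b cells, 25.3, 26.2 and 27.1 in MCC950 cells and 21.5, 13.6 and 12.2 in untreated cells. It rose by 0.74 ± 0.14 (adjusted p = 0.00017) with MCC950 and by 0.59 ± 0.14 (adjusted p = 0.0023) with the antibody (edgeR). Foxred1, a further complex I factor, rose by 0.44 ± 0.09 (adjusted p = 6.8e-05), and Atpaf1, a chaperone of ATP synthase, by 0.43 ± 0.10 (adjusted p = 0.00066) with MCC950 and 0.40 ± 0.10 (adjusted p = 0.0019) with the antibody (edgeR). The citric acid cycle and pyruvate dehydrogenase, which feed the chain, had calls in both directions. Of 17 genes 4 rose and 2 fell with MCC950, and 1 rose and 3 fell with the antibody, while on library totals 6 rose and 0 fell in each. With TMM scaling the background of called genes was 36.8% with MCC950 and 34% with the antibody. On library totals 30% of all genes rose and 11.9% fell with MCC950. With the antibody 29.4% rose and 10% fell there. Between the agents 1 gene, Suclg1 of succinyl-CoA ligase, was lower in anti-IL-1b cells (-0.24 ± 0.07, adjusted p = 0.014, edgeR). On log2(TPM + 1) 0 of the 17 were lower there. Of the 18 genes of other electron entry and ubiquinone synthesis, 5 rose and 2 fell with MCC950, and 1 rose and 1 fell with the antibody (7 and 2, and 7 and 1, on library totals). The shares of all genes are those given for the citric acid cycle. Coq10b, a ubiquinone-binding protein, was the 1 that fell with the antibody, to 8.68 ± 0.699 CPM in anti-IL-1b and 10.96 ± 2.09 CPM in MCC950 cells, against 38.96 ± 4.38 CPM in untreated cells (SD, n = 3; -2.16 and -1.82 log2, edgeR adjusted p = 3.9e-17 and 2.4e-15).

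Scaling bears on the comparisons with untreated cells more than on the one between the agents. TMM factors were 1.031 to 1.035 in anti-IL-1b, 1.023 to 1.024 in MCC950 and 0.945 to 0.947 in untreated libraries. Dividing by library totals instead moved the median of all genes by 0.13 (log2) with the antibody and 0.11 with MCC950, and by 0.01 between the agents. Under it 24 members rose and 2 fell with the antibody, 57 rose and 2 fell with MCC950, and 0 were higher and 21 lower between the agents. Of all genes under it, 29.4% rose and 10% fell with the antibody, and 30% rose and 11.9% fell with MCC950. Between the agents 7.01% of all genes were higher and 6.12% lower. The distance of the members' median from that of all genes stayed at 0.00 with the antibody, and was 0.11 with MCC950 both ways. On log2(TPM + 1) values 21 members rose and 1 fell with the antibody, 36 rose and 1 fell with MCC950, and 0 were higher and 7 lower between the agents. The medians between the agents were -0.11 for members and 0.05 for all genes. Of all genes on these values, 19.8% rose and 6.47% fell with the antibody, and 16.2% rose and 8.18% fell with MCC950. Between the agents 2.71% of all genes were higher and 1.56% lower. Some calls of members named above between the agents did not pass on log2(TPM + 1). They were those of Ndufa8, Ndufc2, Ndufs7, Ndufaf8, Sdha, Sdhb, Sdhc, Uqcrfs1, Cox5a, Cox6b1, Atp5a1, Atp5b, Atp5g3, Atp5h, Atp5j2 and Cox7a2l. Their limma adjusted p ran from 0.061 for Atp5h to 0.95 for Sdha. Against untreated cells the same held, beside the calls of members given above, for Ndufb2 (0.062) and Ndufv1 (0.11) with MCC950. With the antibody it held for Ndufb5 (0.085), Uqcrh (0.19) and Cox4i1 (0.88).

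**Figure D4:**
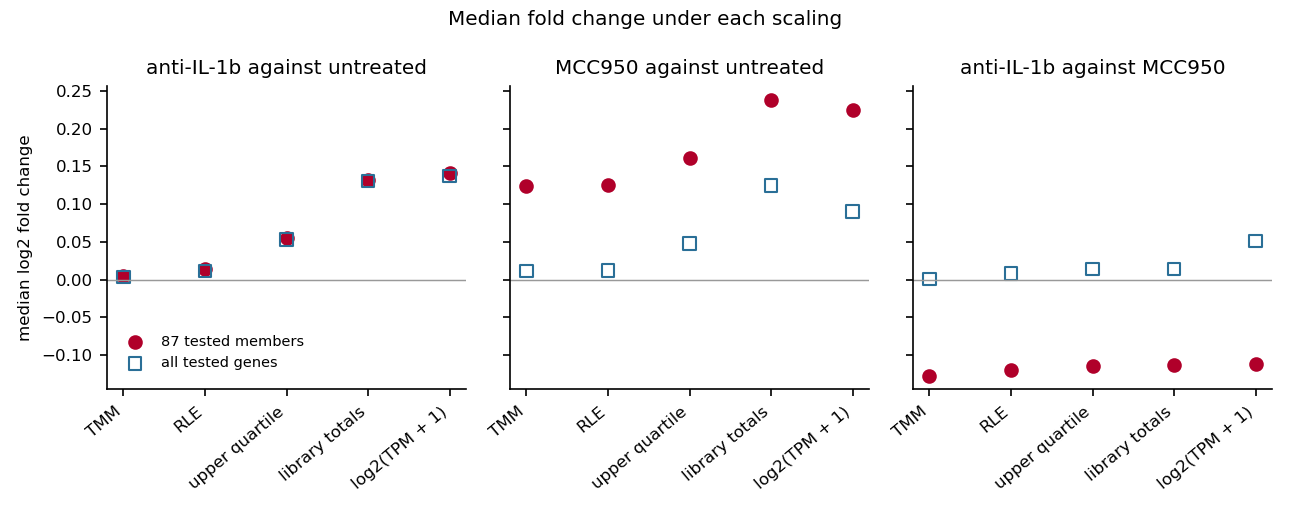
Median log2 fold change (vertical axis) of the 87 tested members (filled circles) and of all tested genes (open squares) under 5 scalings in the 3 comparisons. Members and all genes lie together for anti-IL-1b against untreated and apart for the other 2 comparisons under each scaling, at -0.11 to -0.13 for the members between the agents.

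Most of these genes are short, and transcript length moves with the result. The median effective length was 513 bases for the tested members and 2022 bases for all tested genes, and 68 of 87 members lie under 1000 bases. Over all 2517 tested genes under 1000 bases, the median log2 fold change was 0.08 for MCC950 against untreated and -0.07 for anti-IL-1b against MCC950. Longer genes had -0.0015 and 0.01. The members under 1000 bases had medians of 0.13 and -0.13, and the 19 longer members 0.11 and -0.11 in the same comparisons. Mean fragment lengths were 214 to 223 bases in anti-IL-1b, 225 to 232 bases in MCC950 and 221 to 231 bases in untreated libraries, so those of anti-IL-1b and MCC950 did not overlap. Between the agents, the handling stress genes summed to 3033 to 3259 CPM in anti-IL-1b and 3378 to 3552 CPM in MCC950 cells, with 6 of 12 higher and 5 lower in anti-IL-1b cells. The B cell markers summed to 98.0 to 106 CPM in anti-IL-1b and 108 to 129 CPM in MCC950 cells, with 0 of 12 called by edgeR, DESeq2 or limma-voom and 0 higher and 2 lower at an unadjusted p under 0.05 in edgeR. The naive T cell markers summed to 5575 to 5585 CPM in anti-IL-1b and 4995 to 4999.7 CPM in MCC950 cells. Of these, 4 of 7 were higher and 0 lower in anti-IL-1b cells by edgeR, DESeq2 and limma-voom. The neutrophil markers summed to 29.2 to 29.9 CPM in anti-IL-1b and 14.8 to 16.2 CPM in MCC950 cells. Of 7 tested, edgeR called 2 higher and 0 lower in anti-IL-1b cells, where 6.13% of all genes were higher. DESeq2 called 1 higher and limma-voom 3. The part of length, fragment size and these cell markers in the differences was not tested.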

How the data were processed

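RNA of 9 libraries was taken as the deposited tables of expected counts per gene, which the authors estimated with RSEM after alignment with STAR to mm10, per the submitters' processing notes, with no versions given. RSEM shares reads that fit several genes between them. TPM were used as the authors deposited them, scaled by effective length to the same sum in each library, as the headers name them. FPKM as deposited by the authors, also RSEM output, served only to check each table's sums. No source used here gives the annotation release or strand setting, and reads of a gene and its antisense partner may not be separated. Gene names came from GENCODE annotation of the same build and covered 99.5% of the 55487 IDs.

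Expected counts were rounded. Genes were filtered with filterByExpr, scaled with TMM and fitted in edgeR 4.0.16 (R 4.3.3) with 1 mean per group over all 9 libraries and the robust quasi-likelihood test. P-values were adjusted by Benjamini-Hochberg over 13374 genes at a threshold of 0.05, and the fit was tested on simulated data. The common biological coefficient of variation was 0.0707. DESeq2 1.42.0, limma 3.58.1 (voom, and trend on log2(TPM + 1)), other scalings and filters, a replicate block, fits on 6 libraries and leaving out each library were run as alternatives. Libraries of a group differed by more than sampling noise, with a chi-square per degree of freedom of 3.75 to 5.27. Of 0 columns was the sample unmapped. Shared sequence was counted as 50-base words of a gene's transcripts found in other genes. RefSeq promoters were used for sequence.

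The members and the gene lists were chosen with earlier results of these data known. Named members are, per comparison, the 8 largest rises and 8 largest falls among calls whose mean log2 CPM reached 2 and whose groups did not overlap. To these come, per complex, the genes with the most and least TPM in untreated cells and the smallest p, a fixed list of core genes and isoform families, and up to 4 genes per comparison from each other list. Some single genes are not reported here.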

Additional observations from a re-analysis of the deposited data

How the results depend on the processing

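With the antibody against untreated cells, where 5 members rose and 7 fell, upper-quartile scaling gave 11 that rose, library totals 24 and 2 that fell, log2(TPM + 1) 21 and 1, an adjusted p of 0.10 gave 8 that rose, leaving out members that share over 10% of their 50-base words gave 4 that fell, and leaving out members with overlapping exons gave 3 and 4. The last 2 settings were chosen after seeing the data. Of all genes, 29.4% rose and 10% fell on library totals, and 19.8% rose and 6.47% fell on log2(TPM + 1). The median log2 fold change of the members (0.0052) was 0.055 with upper-quartile scaling, 0.13 on library totals and 0.14 on log2(TPM + 1), and ran from -0.028 to 0.016 with a library left out, where 4 to 7 rose and 6 to 8 fell. With MCC950 against untreated cells (30 rose, 2 fell, median 0.12), library totals gave 57 that rose, where 30% of all genes rose. The count that fell was 1 on log2(TPM + 1), 0 without members that share words and 1 without overlapping exons. The median was 0.16, 0.24, 0.14, 0.22 and 0.15 with upper-quartile scaling, library totals, no filter, log2(TPM + 1) and no overlapping exons, and 0.1232 to 0.1597 with a library left out, where 24 to 30 rose and 2 to 3 fell. Between the agents (24 lower, median -0.13), log2(TPM + 1) gave 7 lower, and a library left out 15 (without MCC950 library 3) to 25. The median was -0.12 with RLE scaling and DESeq2, -0.11 with upper-quartile scaling, library totals and log2(TPM + 1), -0.14 with no filter, -0.16 without members that share words, -0.15 without overlapping exons, and -0.1393 to -0.1241 with a library left out. Of 1026 values of the 54 named calls under alternatives, 941 kept direction and side of the threshold, 81 lost the threshold and 4 turned: Ndufs1 (0.054 on log2(TPM + 1)), Atp5b (0.043 on library totals, 0.097 on log2(TPM + 1)) and Cox7a2l (0.0016 on log2(TPM + 1)), all with the antibody against untreated cells. Members added outside the naming rule and genes of the other lists are not among the 54 named calls. Of the added members, calls of Ndufa13, Ndufaf3 and Cox5a lost the threshold in several alternatives, while those of Atp5e did not. The causes of these changes were not tested. With a replicate block 5 rose and 7 fell, 30 rose and 2 fell, and 24 were lower, with medians of 0.0060, 0.13 and -0.13 in the order above. Same-numbered libraries deviated together at correlations of only -0.057 to 0.042, and differently numbered ones at -0.074 to 0.055. No shared deviation by number was seen, but with 3 libraries per group these correlations cannot show whether the numbers mark a pairing. With 3 libraries per group, small differences are limited by spread between libraries and by depth, and which of these limits them more was not tested.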

Other observations

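Genes that make and import mitochondrial proteins were also read. Of 78 mitochondrial ribosomal proteins 16 rose and 3 fell with MCC950, and 8 rose and 6 fell with the antibody (edgeR). Over all genes 17.7% rose and 19.1% fell with MCC950, and 15.4% rose and 18.5% fell with the antibody. On library totals 34 of the 78 rose and 0 fell with MCC950, and 23 rose and 2 fell with the antibody. There 30% of all genes rose and 11.9% fell with MCC950, and 29.4% rose and 10% fell with the antibody. Of 28 import and folding genes 6 rose and 3 fell with MCC950, and 3 rose and 5 fell with the antibody (11 and 3, and 7 and 3, on library totals). The 3 that fell with MCC950 were the matrix chaperones Hspd1, Hspe1 and Hspa9, with log2 fold changes of -1.16, -1.04 and -0.28 (edgeR adjusted p = 3.6e-26, 3.4e-16 and 3.8e-07). They fell with the antibody too, at -1.39, -1.29 and -0.41 (edgeR adjusted p = 1.0e-28, 2.0e-18 and 6.6e-11). Heat-shock genes of the handling stress list were also low in both treated groups. Between the agents 5 of the 28 were lower in anti-IL-1b cells and 0 higher, where 7.11% of all genes were lower and 6.13% higher. The count of 0 higher also held at an unadjusted p under 0.05 in edgeR, in DESeq2 and in limma-voom.

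Of 80 tested cytosolic ribosomal protein genes 52 were lower in anti-IL-1b than in MCC950 cells and 1 was higher (edgeR), and 45 and 1 on library totals. Over all genes 7.11% were lower and 6.13% higher (edgeR with TMM). Rps3 differed by -0.39 and Rps14 by -0.32 on the log2 scale (adjusted p = 3.3e-16 and 8.9e-14). Against untreated cells 72 fell and 1 rose with the antibody, 36 and 3 on library totals. With MCC950 39 fell and 9 rose, and on library totals the split was turned, with 9 that fell and 37 that rose. On library totals 10% of all genes fell and 29.4% rose with the antibody. With MCC950 11.9% fell and 30% rose there. Of 19 regulators of respiratory genes 1 rose and 7 fell with the antibody and 3 rose and 8 fell with MCC950 (5 and 6, and 8 and 7, on library totals). Over all genes 15.4% rose and 18.5% fell with the antibody, and 17.7% rose and 19.1% fell with MCC950 (edgeR with TMM). Gabpa and Yy1, whose motif letters were searched in the promoters, were lower in MCC950 than in untreated cells, at -0.35 and -0.22 (edgeR adjusted p = 4.0e-06 and 7.0e-06), and in anti-IL-1b than in untreated cells, at -0.23 and -0.32 (adjusted p = 0.0012 and 5.1e-09). Hif1a was lower in both treated groups than in untreated cells, at -0.52 for anti-IL-1b and -0.59 for MCC950 (edgeR adjusted p = 3.7e-11 and 8.9e-13), and Polrmt, the RNA polymerase of mitochondria, was higher in MCC950 than in untreated cells (0.39, adjusted p = 0.00017). Among the carriers, Ucp2 was higher in both, at 0.30 for anti-IL-1b and 0.18 for MCC950 (adjusted p = 1.4e-10 and 1.2e-05), and Slc25a3, the phosphate carrier, was lower, at -0.51 and -0.48 in the same order (adjusted p = 1.2e-17 and 7.8e-17).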
